A study of Mus musculus with 12 samples.

Results

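The genes described here carry out DNA replication and supply its nucleotides and chromatin proteins: 43 genes were listed by their known roles, and all array probes annotated to their symbols or older synonyms were collected. A probe was named for 40 of the 43, against 15967 genes on the whole array, and none was so annotated for Mcm3, Gins1 and Rfc2. A gene was kept where a probe had a detection p-value under 0.05, its brightness set against the array's negative control beads, in every array of at least 1 of the 4 groups. This held for 32 of the 40 genes with a probe, and for 8068 genes of the whole array. The genes were listed by role, with earlier results of these data known.

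Total RNA was measured on Illumina mouse bead arrays in 12 primary astrocyte cultures, prepared from the cerebral cortex of pups aged 2 days and treated at culture day 21 for 48 h with medium holding 10% rat serum. The pups were of SAMP8, a senescence-accelerated mouse strain, or of SAMR1, its senescence-resistant control, and the heat-inactivated serum was that of rats with free access to food (AL) or of rats under caloric restriction (CR). Each of the 4 groups held 3 samples: SAMR1-AL and SAMP8-AL under AL serum, and SAMR1-CR and SAMP8-CR under CR serum. By the labels the cultures were mostly astrocytes with a minority of microglia and few oligodendroglia, so each value is a mean over a mixture, and the astrocytes themselves were mouse cells in serum of another species. Fewer cells of a type and less RNA per cell cannot be told apart in such samples, and neither can a change in the share of cells that were replicating.

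DNA replication starts at origins. Before S phase the origin recognition complex with Cdc6 and Cdt1 loads the Mcm2 to Mcm7 helicase, and geminin (Gmnn) then holds Cdt1 back so that no origin fires again. Cdc45 and the GINS complex turn the loaded helicase on, primase and the polymerases alpha, delta and epsilon copy the strands, the sliding clamp Pcna is loaded by the replication factor C complex (Rfc1 to Rfc5), RPA covers single strands, and Fen1 and Lig1 finish and join the lagging-strand fragments. Ribonucleotide reductase (Rrm1, Rrm2), thymidylate synthase (Tyms) and thymidine kinase (Tk1) supply the nucleotides, and many of these genes are transcribed under E2F factors as cells leave the resting state. Astrocytes in primary culture keep dividing for some time, whereas most astrocytes of the adult cortex rest.

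Levels are given as normalized log2 intensity, which is the log2 of the bead intensity less the array's mean over all probes, scaled to a common spread, so that 0 is the mean of the array and differences are log2 fold changes. Each array detected 41.2% to 46.7% of its probes. The lowest intensity was between 7.01 and 8.19 on 8 arrays and between 40.1 and 42.9 on the other 4, which are replicates 2 and 3 of SAMP8-AL and SAMP8-CR. This division of the arrays, which no label names, thus runs within SAMP8 only. Strain values of the replication genes as a set, and of some of them singly, are given below also with it as a block or within the 8 arrays. Those of the other gene lists are not, so they are unchecked against this division. Over both sera both settings take the strain difference from the same SAMP8 samples, the first replicates, so they are not separate checks of its size. Of the astrocyte markers, Gfap, Aqp4, Slc1a3, Gja1, Aldoc, Glul and Fgfr3 were kept.

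SAMR1-CR replicate 3 stood apart in the replication genes. Taking the median over the 32 genes of each gene's level less its mean over the 12 samples, this sample was at -0.24, within the range of the 6 SAMP8 samples, -0.36 to -0.04. The other 5 SAMR1 samples lay between 0.13 and 0.43. It was the lowest of the 6 SAMR1 samples for 26 of the 32 replication genes (81.2%), against 1568 of the 8068 genes of the array (19.4%). It also stood low in 15 mitosis genes, with a level of -0.35 against 0.25 to 0.76 in the other 5 SAMR1 samples. Its microglia level, 0.33, was the lowest of SAMR1-CR and within the range of the 3 SAMR1-AL samples, and Fcer1g, detected in all 6 SAMP8 samples, was detected in none of the 6 SAMR1 samples, this one included. Results are therefore also given without it.

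Under AL serum every one of the 32 replication genes had a fitted difference below 0 in SAMP8-AL against SAMR1-AL. Of these, 11 fell and 0 rose (limma, adjusted p under 0.05), and 3.81% of all genes tested fell and 5.18% rose. The median over the 32 genes was -0.49, with 0.02 over all genes. In 24 of the 32, all 3 SAMP8-AL samples lay below all 3 SAMR1-AL samples, a separation seen in 13.7% of all genes. The 11 genes were Gmnn, Cdt1, Cdc6, Mcm4, Mcm5 and Mcm6 of origin licensing, Pole, Rfc4, Lig1, Rrm2 and Chaf1a. The number called depended on single samples: it was 2 when SAMR1-AL replicate 2 or either of SAMP8-AL replicates 1 and 3 was left out, 4 when SAMR1-AL replicate 3 was or when SAMP8-AL replicate 2 was, 6 without SAMP8-CR replicate 3, 7 without SAMP8-CR replicate 2, 17 without SAMR1-CR replicate 3 and 19 without SAMR1-CR replicate 2. It was 3 over the 10 samples without the first replicates of SAMR1-AL and SAMP8-AL, 3 with the array division as a block and 0 within the 8 arrays, where the median was -0.64. Each SAMP8 group is a single sample within the 8 arrays, assumed to vary like the SAMR1 groups, so a count of 0 there says nothing about stability.

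Over both sera, 15 of the 32 genes fell in SAMP8 against SAMR1 and 0 rose, and of all genes 6.37% fell and 8.68% rose. To the 11 genes above this added Mcm2, Pold1, Chaf1b and Uhrf1. The median was -0.37 with 0.02 over all genes, and 30 of the 32 were below 0. The number was 20 without SAMR1-CR replicate 3 and 5 with the array division as a block (Pole, Cdt1, Cdc6, Mcm4 and Lig1). Within the 8 arrays, which hold 6 SAMR1 and 2 SAMP8 samples, the median was -0.46. With the block it was -0.46 too, since that difference rests on the same 2 SAMP8 samples. Only Cdt1 and Mcm4 had all 6 SAMP8 samples below all 6 SAMR1 samples. Such a separation held for 3.27% of all genes.

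The filter itself favoured genes that were high in SAMR1. Of the 32 genes, 26 were detected on all 12 arrays, 3 (Pole, Rrm2 and Chaf1b) passed through SAMR1-AL alone, and Cdc6 passed through the SAMR1 groups alone. Counts over the 32 are therefore given beside those of the 26 genes detected everywhere: under AL serum 7 of the 26 fell (26.9%), against 3.31% of the 6790 genes of the array so detected. Over both sera 10 of the 26 fell (38.5%), against 5.58%. Under CR serum 0 of the 26 fell, against 1.09%. With no filter, all 40 genes with a probe were below 0 under AL serum, as were 9114 of all 15967 genes. The medians were -0.44 and -0.02. The 40 include the 8 genes with no kept probe, whose values lay at or near background, so this count is no check on the filter.

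**Figure D1:**
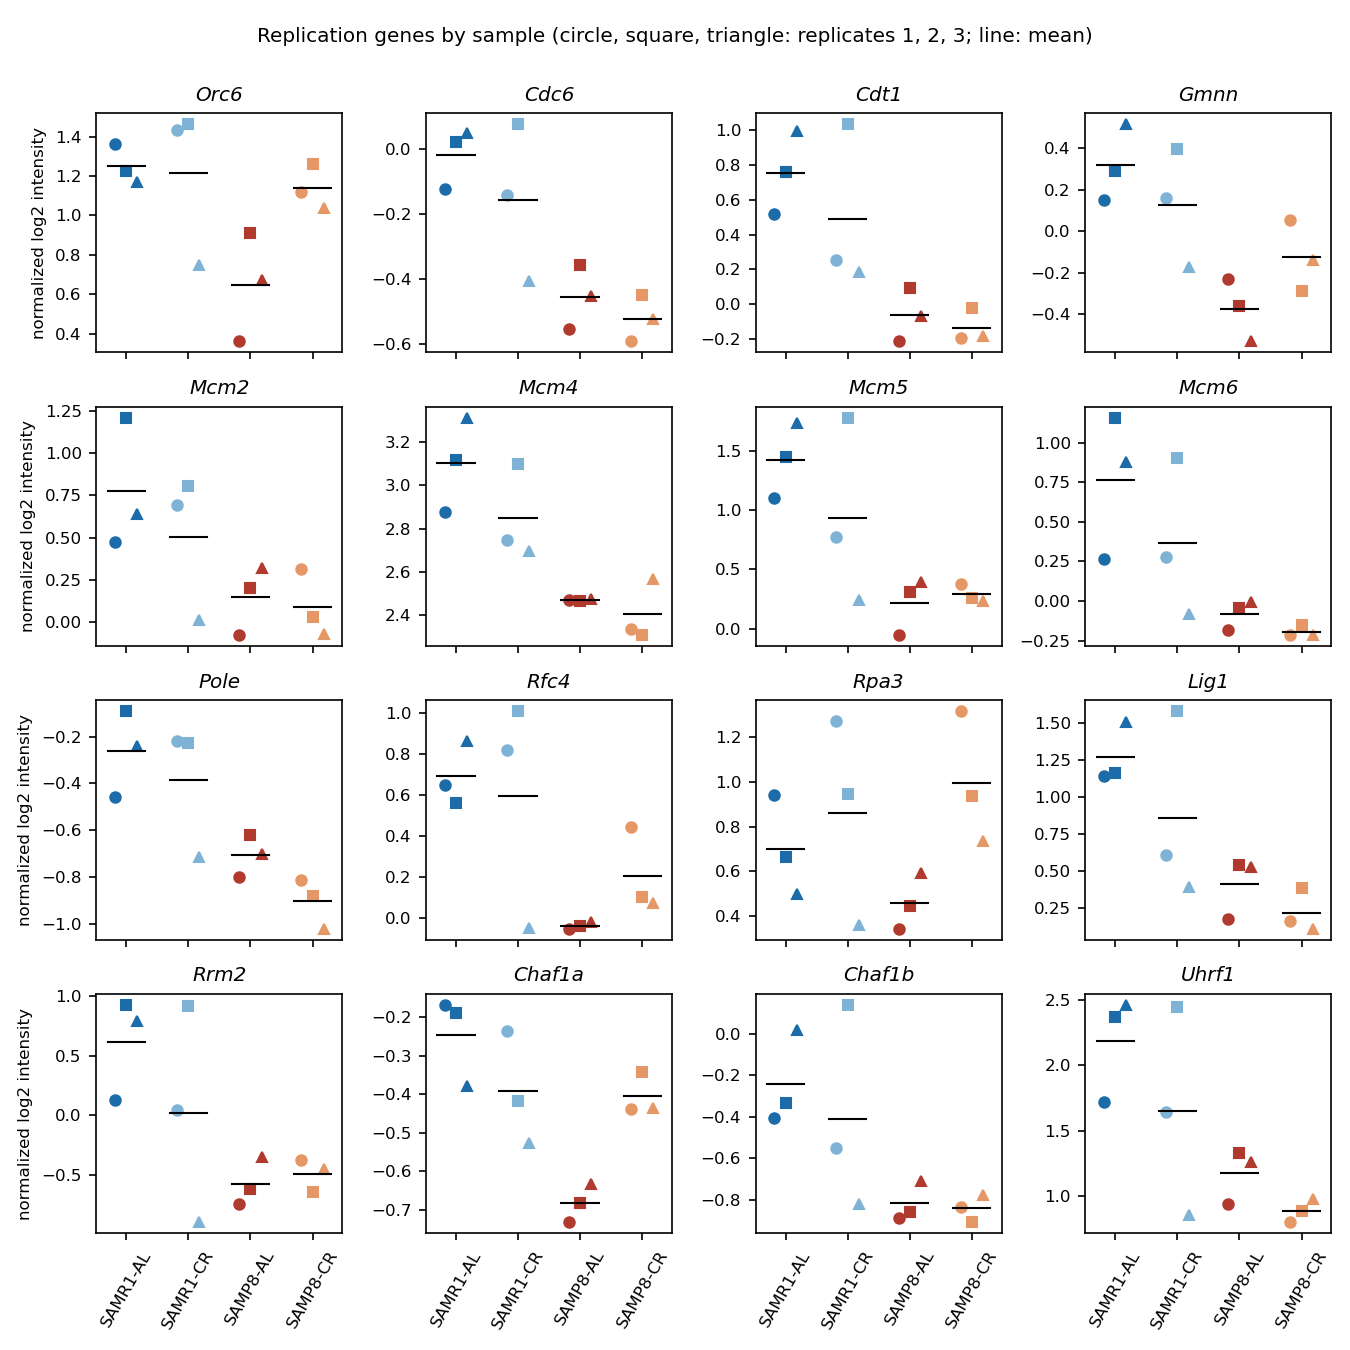
Normalized log2 intensity (y axis, own scale per panel) of 16 replication genes in the 4 groups (x axis), 1 point per sample and a line at the mean of 3. SAMR1-CR replicate 3, the pale blue triangle, lay at or near the SAMP8 samples in most panels.

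Origin licensing, the role group with the most kept genes, held the most genes that differed by strain. Of its 9 kept genes, 6 fell in SAMP8 under AL serum and 7 over both sera, with medians of -0.63 and -0.52. Cdc6, counted in both, passed the filter through the SAMR1 groups alone. Of all genes 3.81% fell under AL serum and 6.37% over both sera. These shares belong beside the counts of every role group below. The values below are given in the order of replicates 1, 2 and 3.

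Cdt1, which loads the helicase together with Cdc6, was at 0.52, 0.76 and 0.99 in SAMR1-AL, at 0.25, 1.04 and 0.19 in SAMR1-CR, at -0.22, 0.09 and -0.07 in SAMP8-AL, and at -0.20, -0.03 and -0.18 in SAMP8-CR. The SAMR1 samples were all above the SAMP8 samples, although the lowest of them, SAMR1-CR replicate 3, was close to the highest SAMP8 sample. It fell 1.65-fold over both sera (log2 fold change -0.72, SE 0.14, adjusted p = 0.00353) and 1.77-fold under AL serum (-0.82, SE 0.20, adjusted p = 0.0212). Cdc6 was at -0.12, 0.02 and 0.05 in SAMR1-AL, at -0.14, 0.08 and -0.41 in SAMR1-CR, at -0.55, -0.36 and -0.45 in SAMP8-AL, and at -0.59, -0.45 and -0.52 in SAMP8-CR. Its single overlapping SAMR1 sample was SAMR1-CR replicate 3. Its probe was detected in all 6 SAMR1 samples and in 2 of 3 samples of each SAMP8 group. It fell 1.32-fold over both sera (-0.40, SE 0.08, adjusted p = 0.00393) and 1.35-fold under AL serum (-0.44, SE 0.11, adjusted p = 0.027).

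Gmnn, the inhibitor of Cdt1, fell as well. It was at 0.15, 0.29 and 0.52 in SAMR1-AL, at 0.16, 0.40 and -0.17 in SAMR1-CR, at -0.23, -0.36 and -0.53 in SAMP8-AL, and at 0.06, -0.29 and -0.14 in SAMP8-CR. The AL groups did not overlap, and the fall there was 1.62-fold (-0.69, SE 0.15, adjusted p = 0.0132), whereas the CR groups overlapped. Over both sera it was -0.47 (SE 0.11, adjusted p = 0.00937), and with the array division as a block -0.31 (adjusted p = 0.233). Orc6, the smallest subunit of the origin recognition complex, was at 1.36, 1.23 and 1.17 in SAMR1-AL, at 1.43, 1.46 and 0.75 in SAMR1-CR, at 0.36, 0.91 and 0.67 in SAMP8-AL, and at 1.12, 1.26 and 1.04 in SAMP8-CR. SAMP8-AL was the low group for Orc6. SAMP8-CR lay within the range of SAMR1 only through SAMR1-CR replicate 3, as the other SAMR1 samples were at 1.17 or above. Its strain difference did not pass under AL serum (-0.60, SE 0.20, adjusted p = 0.0659) or over both sera (-0.34, SE 0.14, adjusted p = 0.109), and over both sera it passed without SAMR1-CR replicate 3 (-0.46, adjusted p = 0.0171).

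Of the helicase subunits with a kept probe, Mcm2, Mcm4, Mcm5 and Mcm6 fell and Mcm7 did not pass. Mcm5 was at 1.10, 1.45 and 1.73 in SAMR1-AL, at 0.78, 1.78 and 0.24 in SAMR1-CR, at -0.05, 0.31 and 0.39 in SAMP8-AL, and at 0.38, 0.26 and 0.23 in SAMP8-CR. It had the greatest fall of the 32 genes under AL serum, 2.31-fold (-1.21, SE 0.29, adjusted p = 0.021), and it fell 1.90-fold over both sera (-0.93, SE 0.21, adjusted p = 0.00809). Mcm6 was at 0.27, 1.16 and 0.88 in SAMR1-AL, at 0.28, 0.91 and -0.08 in SAMR1-CR, at -0.18, -0.05 and -0.01 in SAMP8-AL, and at -0.22, -0.15 and -0.21 in SAMP8-CR. Its fall was 1.80-fold under AL serum (-0.85, SE 0.23, adjusted p = 0.0356) and 1.63-fold over both sera (-0.70, SE 0.16, adjusted p = 0.0103). For both genes only SAMR1-CR replicate 3 reached down among the SAMP8 samples, and with the array division as a block the adjusted p over both sera was 0.051 for Mcm5 and 0.0639 for Mcm6.

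Mcm4 was at 2.88, 3.12 and 3.31 in SAMR1-AL, at 2.75, 3.10 and 2.70 in SAMR1-CR, at 2.47 in each SAMP8-AL sample, and at 2.34, 2.31 and 2.57 in SAMP8-CR. The strains did not overlap, and the fall was 1.45-fold over both sera (-0.54, SE 0.11, adjusted p = 0.00463) and 1.55-fold under AL serum (-0.63, SE 0.15, adjusted p = 0.0218). Mcm2 was at 0.47, 1.21 and 0.64 in SAMR1-AL, at 0.69, 0.81 and 0.01 in SAMR1-CR, at -0.08, 0.20 and 0.32 in SAMP8-AL, and at 0.32, 0.03 and -0.07 in SAMP8-CR. It passed over both sera (-0.52, SE 0.16, adjusted p = 0.0388) but not under AL serum (-0.63, SE 0.22, adjusted p = 0.0936). Mcm7 was not called, with log2 fold changes of -0.45 under AL serum and -0.30 over both sera. Whether the subunits differed from one another in their change was not tested.

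The promoters of these genes are shown because E2F factors are known to act on many of them. Windows of 250 bases before to 50 bases after each start were taken from RefSeq (GRCm38.p6) for 36 of the 43 genes and searched on both strands for the E2F letters TTTCCCGC, TTTCGCGC, TTTGCCGC and TTTGGCGC, which overlap each other in places, and for CCAAT. At least 1 of the E2F letter strings was in 13 of the 36 genes (36.1%), against 2.6% of all 27025 genes of the table, and CCAAT was in 23 (63.9%), against 41.1%. Among the 12 genes with a window that fell over both sera, 7 held E2F letters, and 2 of the 16 kept genes that were not called did. Of the 8 genes with a window but no kept probe, 4 held them. A match describes letters only, and no test was made. The 250 bases before the start follow for the 4 genes that fell and whose match lies there, with the matched letters in capitals, read 5′ to 3′ on the strand of the gene.
Mcm5, chr8:75109259-75109508, plus strand: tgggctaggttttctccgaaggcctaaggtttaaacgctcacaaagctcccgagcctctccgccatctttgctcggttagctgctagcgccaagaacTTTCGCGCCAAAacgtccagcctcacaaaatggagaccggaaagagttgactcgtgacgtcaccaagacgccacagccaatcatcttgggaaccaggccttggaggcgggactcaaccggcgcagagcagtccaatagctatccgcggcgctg
Mcm6, chr1:128359706-128359955, minus strand: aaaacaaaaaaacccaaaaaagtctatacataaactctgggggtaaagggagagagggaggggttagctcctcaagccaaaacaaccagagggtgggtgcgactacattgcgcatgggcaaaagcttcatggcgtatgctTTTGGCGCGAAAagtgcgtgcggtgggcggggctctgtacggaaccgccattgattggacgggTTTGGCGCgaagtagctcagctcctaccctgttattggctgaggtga
Cdc6, chr11:98907901-98908150, plus strand: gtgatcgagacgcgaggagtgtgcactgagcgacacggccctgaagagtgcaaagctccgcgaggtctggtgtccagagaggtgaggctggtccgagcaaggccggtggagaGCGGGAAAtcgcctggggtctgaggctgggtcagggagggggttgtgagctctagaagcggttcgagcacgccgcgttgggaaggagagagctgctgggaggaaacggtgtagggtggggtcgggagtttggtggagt
Uhrf1, chr17:56304063-56304312, plus strand: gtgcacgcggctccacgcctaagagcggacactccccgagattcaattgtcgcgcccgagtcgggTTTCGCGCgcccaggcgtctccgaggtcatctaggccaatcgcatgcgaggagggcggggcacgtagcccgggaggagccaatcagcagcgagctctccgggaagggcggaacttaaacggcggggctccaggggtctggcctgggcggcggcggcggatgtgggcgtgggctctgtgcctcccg
In Mcm5 TTTCGCGC and the reverse complement of TTTGGCGC overlap to form 1 run of capitals, 153 bases before the start. Mcm6 held 3 matches, at 110, 106 and 47 bases before the start, of which the first and second overlap. Cdc6 held the reverse complement of TTTCCCGC at 138 bases and Uhrf1 held TTTCGCGC at 185 bases. Cdt1, Lig1 and Pold1 each held 1 match just after a start, whereas Mcm2, Rfc4, Rrm2, Chaf1a and Chaf1b held none.

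The helicase activators could not be followed. Probes for Mcm10, Cdc45 and Gins2 were detected on 0 of the 12 arrays, which bounds their signal at the array's background and gives no difference between groups.

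Of the polymerases and primase, Pole and Pold1 fell over both sera, and all 6 kept genes were below 0 in both sera. Pole, the catalytic subunit of the leading-strand polymerase epsilon, was dim: it was detected in 5 of the 6 SAMR1 samples and in 0 of the 6 SAMP8 samples. It was at -0.46, -0.09 and -0.24 in SAMR1-AL, at -0.22, -0.23 and -0.71 in SAMR1-CR, at -0.80, -0.62 and -0.70 in SAMP8-AL, and at -0.81, -0.88 and -1.02 in SAMP8-CR. Because it was not above background in SAMP8, the difference is a bound, set with the SAMP8 samples at the lowest detected signal of their arrays. It was at least 1.18-fold lower over both sera (adjusted p = 0.00234), at least 1.21-fold lower under AL serum (adjusted p = 0.0388) and at least 1.14-fold lower under CR serum (adjusted p = 0.0386). Here and for the other bounds, the adjusted p is that of the limma fit to the measured values, not of the bound. Undetected samples of the brighter strain enter the bound at their measured value. Pold1, the catalytic subunit of polymerase delta, ranged from 0.18 to 1.19 in SAMR1 and from 0.04 to 0.44 in SAMP8, with a fall of 1.40-fold over both sera (-0.48, SE 0.15, adjusted p = 0.0455). Pold2, its second subunit, had -0.62 under AL serum (adjusted p = 0.0533) and -0.39 over both sera (adjusted p = 0.0628). Pola2, Prim1 and Prim2, of the complex that lays down primers, were not called, with log2 fold changes of -0.23, -0.28 and -0.09 over both sera. The probes for Pola1 and Pole2 were detected on 0 arrays.

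Of the 5 kept clamp and clamp loader genes, 1 fell. Rfc4, a small subunit of the clamp loader, was at 0.65, 0.56 and 0.86 in SAMR1-AL, at 0.82, 1.01 and -0.05 in SAMR1-CR, at -0.05, -0.04 and -0.02 in SAMP8-AL, and at 0.44, 0.10 and 0.07 in SAMP8-CR. SAMR1-CR replicate 3 was at the level of SAMP8-AL, and the other SAMR1 samples were above all of SAMP8. It fell 1.66-fold under AL serum (-0.73, SE 0.22, adjusted p = 0.0487) and 1.47-fold over both sera (-0.56, SE 0.15, adjusted p = 0.0244), with -0.45 and an adjusted p of 0.259 when the array division was a block. A second, dimmer Rfc4 probe fell over both sera too (-0.22, SE 0.06, adjusted p = 0.0343) and did not pass under AL serum (-0.24, adjusted p = 0.115). Pcna, the clamp, was at 2.13, 2.18 and 2.46 in SAMR1-AL against 1.62, 1.59 and 1.48 in SAMP8-AL, and it just missed the threshold both there (-0.69, SE 0.21, adjusted p = 0.0549) and over both sera (-0.46, SE 0.15, adjusted p = 0.0533). Rfc5 had -0.26 over both sera (adjusted p = 0.0608). The large subunit Rfc1 and Rfc3 were near 0, at 0.07 (95% confidence interval -0.19 to 0.32) and 0.03 (-0.15 to 0.22).

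Among the genes for single-strand binding and fragment joining, Lig1 fell and the RPA subunits did not pass. Lig1, the ligase that joins lagging-strand fragments, was at 1.14, 1.17 and 1.51 in SAMR1-AL, at 0.61, 1.58 and 0.39 in SAMR1-CR, at 0.17, 0.54 and 0.53 in SAMP8-AL, and at 0.16, 0.38 and 0.11 in SAMP8-CR. Within each serum SAMR1 was above SAMP8 in every sample. The fall was 1.81-fold under AL serum (-0.86, SE 0.25, adjusted p = 0.0432) and 1.68-fold over both sera (-0.75, SE 0.17, adjusted p = 0.0101). Fen1, the nuclease that trims the fragments, had -0.36 over both sera (SE 0.16, adjusted p = 0.131).

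Rpa1 and Rpa2 had -0.18 (adjusted p = 0.317) and -0.21 (adjusted p = 0.227) over both sera, and the second Rpa2 probe -0.20 (adjusted p = 0.118). Rpa3, the smallest subunit, had the smallest p of the 32 genes for serum over both strains. It was at 0.94, 0.66 and 0.50 in SAMR1-AL, at 1.27, 0.95 and 0.36 in SAMR1-CR, at 0.34, 0.44 and 0.59 in SAMP8-AL, and at 1.32, 0.94 and 0.73 in SAMP8-CR. All 3 SAMP8-CR samples were above all 3 SAMP8-AL samples, by 0.54 (SE 0.22, unadjusted p = 0.0272, adjusted p = 0.818), which did not pass. Its strain difference over both sera was -0.05 (95% confidence interval -0.38 to 0.28).

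Of the 3 kept nucleotide supply genes 1 fell, and whether they differed from one another was not tested. Rrm2, the subunit of ribonucleotide reductase made in S phase, was at 0.13, 0.93 and 0.79 in SAMR1-AL, at 0.05, 0.92 and -0.90 in SAMR1-CR, at -0.74, -0.62 and -0.35 in SAMP8-AL, and at -0.37, -0.64 and -0.45 in SAMP8-CR. SAMR1-CR replicate 3 was the lowest of all 12 samples and the other SAMR1 samples were all above SAMP8. Rrm2 passed the filter through SAMR1-AL alone, where it was high, and it was detected in 1 of 3 SAMP8-AL and 2 of 3 SAMP8-CR samples, so its measured differences include values not above background. It was lower under AL serum (-1.19, SE 0.33, adjusted p = 0.0358) and over both sera (-0.85, SE 0.23, adjusted p = 0.0227), and with the array division as a block it had -0.88 (adjusted p = 0.134). Rrm1, the large subunit, had -0.02 over both sera (95% confidence interval -0.37 to 0.33). Tyms had -0.64 under AL serum (SE 0.22, adjusted p = 0.0802) and -0.34 over both sera (adjusted p = 0.157), and its second kept probe -0.38 (adjusted p = 0.085) and -0.21 (adjusted p = 0.132).

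Tk1, which salvages thymidine, lay just outside the detection filter. A pair of its probes were detected on 4 of the 12 arrays, SAMR1-AL replicates 2 and 3 and SAMR1-CR replicates 1 and 2, and on none of SAMP8. One of them was at -0.54, 0.24 and 0.27 in SAMR1-AL, at -0.16, 0.13 and -0.81 in SAMR1-CR and between -1.10 and -0.66 in SAMP8. Another Tk1 probe was detected on 0 arrays. Just inside the filter, Chaf1b was detected on 4 arrays, Pole on 5, and Rrm2 and Chaf1a on 8.

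All 3 kept genes of chromatin supply fell over both sera, where 6.37% of all genes fell. Of the 3, only Uhrf1 was detected on all 12 arrays, and Chaf1b passed the filter through SAMR1-AL alone. Uhrf1, which brings the maintenance methyltransferase to newly copied DNA, was at 1.72, 2.37 and 2.46 in SAMR1-AL, at 1.64, 2.45 and 0.85 in SAMR1-CR, at 0.94, 1.33 and 1.26 in SAMP8-AL, and at 0.80, 0.89 and 0.98 in SAMP8-CR. Only SAMR1-CR replicate 3 was not above all of SAMP8. The fall was 1.85-fold over both sera (-0.88, SE 0.22, adjusted p = 0.0133), and under AL serum the difference just missed the threshold (-1.01, SE 0.30, adjusted p = 0.0517). With the array division as a block it was -1.05 over both sera (adjusted p = 0.051).

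Chaf1a and Chaf1b are subunits of the chromatin assembly factor, which places histones on new DNA, and both were dim. Chaf1b was at -0.40, -0.34 and 0.02 in SAMR1-AL, at -0.55, 0.14 and -0.82 in SAMR1-CR, at -0.89, -0.86 and -0.71 in SAMP8-AL, and at -0.83, -0.91 and -0.78 in SAMP8-CR. It was detected in 4 of the 6 SAMR1 samples and 0 of the 6 SAMP8 samples, so that it was at least 1.17-fold lower over both sera (adjusted p = 0.0155). Chaf1a was at -0.17, -0.19 and -0.38 in SAMR1-AL, at -0.23, -0.42 and -0.53 in SAMR1-CR, at -0.73, -0.68 and -0.63 in SAMP8-AL, and at -0.44, -0.34 and -0.44 in SAMP8-CR. It was detected in no SAMP8-AL sample and was there at least 1.23-fold lower than in SAMR1-AL (adjusted p = 0.00796). SAMP8-CR lay within the range of SAMR1 only through SAMR1-CR replicate 3, as the other SAMR1 samples were at -0.42 or above. Chaf1a passed over both sera too (adjusted p = 0.0231), where no fold is given because SAMP8-AL was not above background. Slbp, the histone mRNA binding protein, was detected on 0 arrays. E2f1, a transcription factor of this programme, was detected on all 12 arrays and was not called, at -0.25 under AL serum and -0.17 over both sera (95% confidence interval -0.48 to 0.14).

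Under CR serum 1 of the 32 genes, Pole, fell in SAMP8-CR against SAMR1-CR, and 0 rose. Of all genes 1.3% fell and 1.47% rose. Pole passed the filter through SAMR1-AL alone and was detected in 2 of 3 SAMR1-CR and 0 of 3 SAMP8-CR samples. Of the 26 genes detected on all 12 arrays 0 fell under CR serum. The median over the 32 genes was -0.21 with 0.03 over all genes, and 28 of the 32 were below 0. In 6 of them all SAMP8-CR samples lay below all SAMR1-CR samples, as in 8.73% of all genes. Cdc6, Cdt1, Mcm4, Lig1 and Mcm6 did not overlap either, with log2 fold changes of -0.36, -0.63, -0.44, -0.65 and -0.56 and adjusted p from 0.107 to 0.241. Without SAMR1-CR replicate 3 the median was -0.41 and 4 genes fell, and none fell without SAMR1-CR replicate 1 or 2, SAMP8-AL replicate 2 or 3, or any 1 of the SAMP8-CR samples. None fell with the array division as a block, or within the 8 arrays, where SAMP8-CR is a single sample.

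The strain difference was not shown to depend on the serum. In the strain by serum interaction, the difference under CR serum minus that under AL serum, 0 of the 32 genes and 0% of all genes passed (limma), with 1 of the 32 and 289 of the 8068 at an unadjusted p under 0.05. It was above 0 in 31 of the 32 genes with a median of 0.24, and 0.00 over all genes, which describes the smaller differences under CR serum. Without SAMR1-CR replicate 3 that median was 0.06. The 1 gene was Chaf1a (adjusted p = 0.965), for which no size is given because SAMP8-AL was not above background, and Gmnn followed with 0.44 (SE 0.22, unadjusted p = 0.0601).

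**Figure D2:**
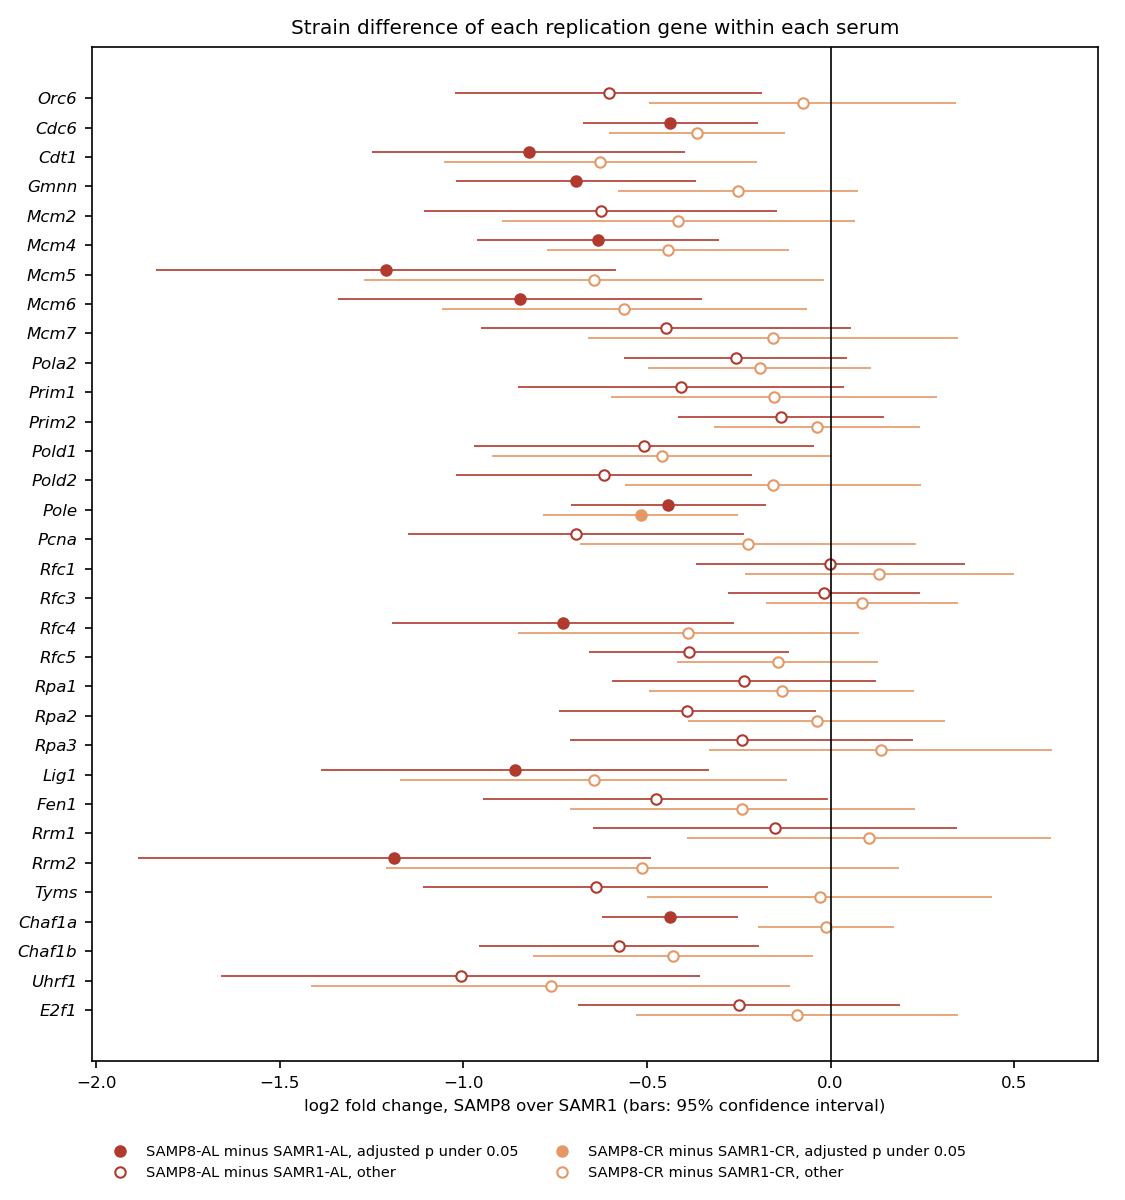
Log2 fold change of SAMP8 over SAMR1 (x axis) for the 32 kept replication genes (y axis, by role) under AL serum (red) and CR serum (orange), with 95% confidence intervals and filled points at an adjusted p under 0.05. Under AL serum 11 points are filled and all 32 lie below 0, and under CR serum 1 point is filled and 28 lie below 0. For Pole and Chaf1b in both sera and Chaf1a under AL serum SAMP8 was not above background, and the plotted value is the measured one.

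The serum changed none of the replication genes past the threshold in either strain. In SAMR1, CR against AL serum gave 0 of the 32 genes called and 0% of all genes, with 0 of the 32 and 236 of the 8068 at an unadjusted p under 0.05. There 30 of the 32 were below 0 with a median of -0.16, which was -0.03 without SAMR1-CR replicate 3. Rrm2 (-0.59, SE 0.33, unadjusted p = 0.09) and Uhrf1 (-0.53, SE 0.30, unadjusted p = 0.101) had the smallest p. In SAMP8, CR against AL serum gave 0 of 32 called and 0% of all genes, with 3 of the 32 and 397 of the 8068 at an unadjusted p under 0.05. These were Orc6 (0.49, SE 0.20), Rpa3 (0.54, SE 0.22) and Chaf1a, each with an adjusted p of 0.818. Orc6 and Rpa3 were higher in every SAMP8-CR sample, and for Chaf1a no size is given because SAMP8-AL was not above background. In that comparison 19 of the 32 genes were above 0, the median was 0.08, and 7 genes, Chaf1a among them, had every SAMP8-CR value above every SAMP8-AL value, against 11% of all genes.

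Over both strains the serum effect gave 0 of 32 called and 0% of all genes, with 1 of the 32 and 266 of the 8068 at an unadjusted p under 0.05. This was Rpa3 (0.35, SE 0.15, unadjusted p = 0.0405, adjusted p = 0.97), followed by Uhrf1 (-0.41, SE 0.22, unadjusted p = 0.0762). The median over the 32 genes was -0.04 with 0.01 over all genes. Comparisons with a group in common share its samples, so their values are not independent of each other.

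The SD of the per-sample replication level, the median over the 32 genes, was 0.08 in SAMR1-AL, 0.11 in SAMP8-AL, 0.09 in SAMP8-CR and 0.34 in SAMR1-CR, the group that holds the sample standing apart (n = 3 each).

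Of 29 kept further replication genes, chosen by role, 2 fell in SAMP8 under AL serum (6.9%, with 3.81% of all genes) and 0 rose, and over both sera 3 fell (10.3%, with 6.37% of all genes). These were Pole4, a small subunit of polymerase epsilon (-0.92, SE 0.15, adjusted p = 0.000919), Clspn, which relays the replication checkpoint (-0.62, SE 0.09, adjusted p = 0.00051), and Chtf18, of an alternative clamp loader, which was not above background in SAMP8 and was at least 1.09-fold lower (adjusted p = 0.0497). Chtf18 passed the filter through SAMR1-AL alone, where it was high, and it is counted among the 3. The median over the 29 was -0.06 over both sera. Under CR serum Clspn fell as well (-0.62, adjusted p = 0.0167). A dimmer probe of Tipin, a fork protection gene, was higher in SAMP8 (0.74, SE 0.08, adjusted p = 3.64e-05), while its brighter probe was not called (0.12, adjusted p = 0.296). Of 16 further nucleotide genes, Nme1 (-0.65, adjusted p = 0.0216) and Samhd1, which degrades deoxynucleotides (-0.45, adjusted p = 0.02), fell over both sera and Ctps2, of CTP synthesis, rose (0.34, adjusted p = 0.0341).

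Mitosis genes were lower in SAMP8 too. Of 26 with a probe 15 were kept. Of these 15, 10 fell under AL serum, with a median of -0.91, where 3.81% of all genes fell. Over both sera 14 fell, with a median of -0.75, where 6.37% of all genes fell. Aurka and Ube2c were detected in no SAMP8 sample, so the medians include values not above background. Both passed the filter through SAMR1-AL alone, a group of the brighter strain, so the filter itself favoured their fall. As 14 of the 15 fell over both sera, that count cannot leave out both. For this list no count is given over only the genes detected on every array, so the shares of all genes are no check on the filter. The 6 with the smallest p over both sera were Tpx2 (-0.87), Nusap1 (-0.99), Aurkb (-0.79), Plk1 (-0.95), Prc1 (-1.27) and Cenpa (-1.22), with adjusted p from 0.000689 to 0.00472. Among 8 kept cell cycle inhibitors, Cdkn2a was lower in SAMP8 (-2.08, SE 0.13, adjusted p = 1.69e-07) and Cdkn2b was higher (1.03, SE 0.14, adjusted p = 0.000245), and a dimmer Cdkn1a probe was higher (1.23, SE 0.20, adjusted p = 0.00111) while its brighter probe was not called (0.28, adjusted p = 0.166).

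Markers of other cells moved with strain as well. Of 10 kept microglia and macrophage markers, 7 were lower and 1, Fcer1g, was higher over both sera, with a median of -0.84. Of all genes 6.37% fell and 8.68% rose there. Cd14 (-2.16), Tyrobp (-1.14), C1qa (-1.09), C1qb (-1.10) and C1qc (-0.95) were lower with adjusted p from 1.76e-06 to 0.0087, and Fcer1g was at least 10.2-fold higher (adjusted p = 4.11e-09). The level of the list was between -0.15 and 0.84 in SAMR1-AL, 0.33 and 0.55 in SAMR1-CR, -1.06 and -0.10 in SAMP8-AL, and -0.42 and -0.06 in SAMP8-CR. Its part in the fall of the replication genes was not tested. SAMR1-AL replicate 1 was the lowest of its group in both the microglia list (-0.15) and the replication genes (0.16). So were SAMP8-AL replicate 1 (-1.06 and -0.36) and SAMR1-CR replicate 3 (0.33 and -0.24). In SAMP8-CR the order differed: replicate 1 was lowest in the microglia list (-0.42) but highest in the replication genes (-0.04), where replicate 3 was lowest (-0.21). Whether the levels moved together was not tested, and each group held only 3 samples. Of 7 kept astrocyte markers, 3 rose over both sera (Aqp4, Aldoc and Glul) and 0 fell. Of 8 fibroblast and meningeal markers, 2 rose (Col1a2 and Pdgfrb), of 4 oligodendrocyte lineage markers 1 rose (Olig2), and of 4 neuron markers and 1 endothelial marker 0 passed. The level of the fibroblast and meningeal list followed the array division within SAMP8. It was -0.76 and -0.35 in the first replicates of SAMP8-AL and SAMP8-CR, below all SAMR1 samples (-0.27 to 0.23). In the other SAMP8 samples it was 0.33 to 0.67.

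**Figure D3:**
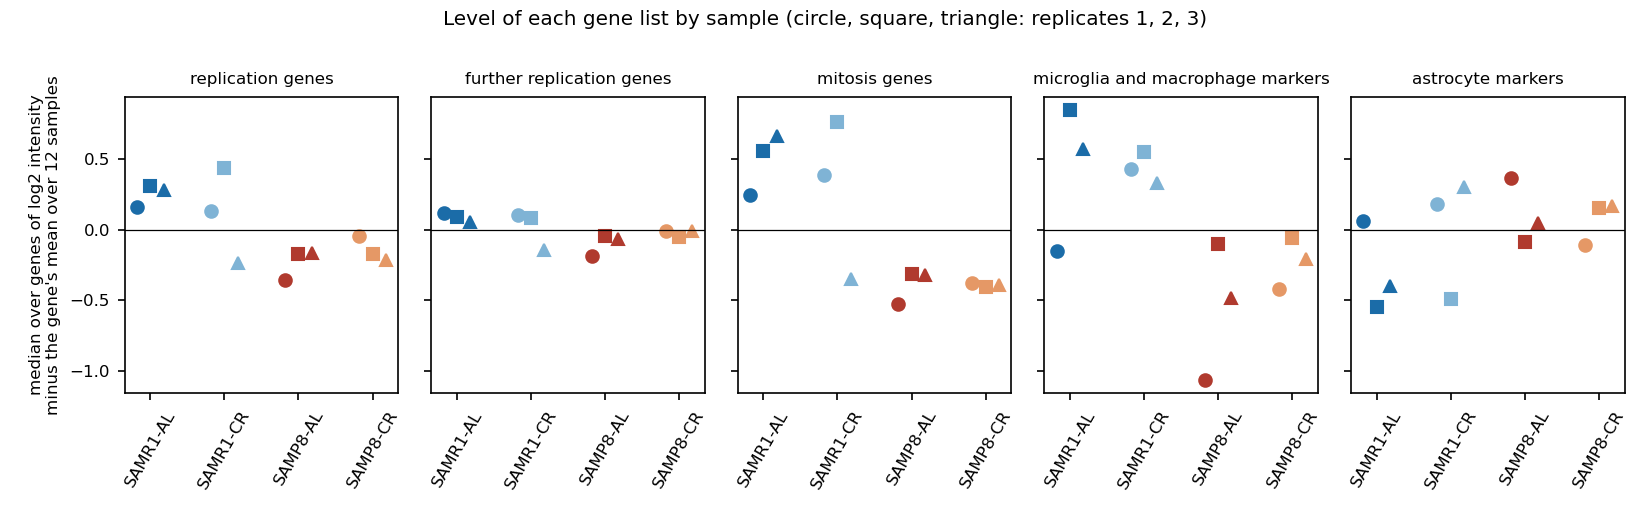
Level of 5 gene lists in each sample (y axis, median over the genes of a list of the log2 level less the gene's mean over 12 samples) by group (x axis), 1 point per sample. In the 32 replication genes and the 15 mitosis genes 5 SAMR1 samples lie above all SAMP8 samples and SAMR1-CR replicate 3 lies with SAMP8, whereas in the microglia list that sample is at 0.33, above all SAMP8 samples, and SAMR1-AL replicate 1 is at -0.15.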

How the data were processed

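Illumina mouse bead arrays of 24613 probes were read for 12 cultures, 3 per group by the labels. The authors deposited a bead intensity per probe and array, not normalized or background corrected, with a detection p-value from the negative control beads. They also deposited a Z score table of the log10 intensities, which was recomputed from the intensities to within 5.0e-10. Scanner and image settings are not given in the sources used here.

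Each array's log2 intensities were centred on their mean, divided by their SD and rescaled by the average SD over arrays. The filter on detection p, under 0.05 in all arrays of at least 1 group, left 10935 probes of 8068 genes, and the brightest kept probe stood for a gene. Of the 24613 probes 20984 name 1 gene. All 12 samples and 4 groups were fitted in 1 limma model (limma 3.58.1, R 4.3.3, eBayes with a trend), and p-values were adjusted over all kept probes by Benjamini-Hochberg at 0.05. The fit was tested on simulated data. The labels number the replicates without naming their litters, so p-values measure the spread between these samples, which may be technical, and 3 per group limit the precision. Where no array of a group detected a probe, a bound is given in place of a fold, with each such array at the higher of its lowest detected signal and the probe's own.

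Members and lists were chosen with earlier results of these data known. Members named in full are those past the threshold in any of the 7 comparisons, at most the 14 with the smallest p, and the 2 with the smallest p per comparison. In other lists, genes past the threshold are named, at most 6 per list. Pold1 and other members outside this rule were named after their values were seen. Alternatives were other normalizations, filters and sample sets, the methods' Z ratio, the array division or the replicate number as a block, and each sample left out. Samples of the same replicate number deviated together, with every correlation over 0.1, between SAMP8-AL and SAMP8-CR (0.12 to 0.44) and between SAMR1-CR and SAMP8-CR (0.19 to 0.37). Neither other comparison of groups met this. Over all 18 same-number pairs the correlations ran from -0.25 to 0.57, and over the 36 pairs of different number from -0.55 to 0.44. In SAMP8 the array division also sets replicate 1 apart from replicates 2 and 3. These values therefore do not establish a pairing, which the labels do not state either, and the replicate block is given with the alternatives only. Promoter windows came from RefSeq, GRCm38.p6. Figures were drawn with Python 3.11.15 and matplotlib 3.10.9.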

Additional observations from a re-analysis of the deposited data

How the results depend on the processing

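Every setting below changes 1 choice, except where it names more. The replication genes called in SAMP8-AL against SAMR1-AL, 11 in the report, were 3 over 10 samples, without the first replicates of SAMR1-AL and SAMP8-AL, 3 with the array division as a block, 0 within the 8 arrays of the low minimum, where each SAMP8 group is 1 sample, 7 among genes detected on all 12 arrays (chosen after seeing the data), 22 by the methods' Z ratio of at least 1.5, which has no p, and 2 to 19 when 1 sample was left out. Over both sera, 15 in the report, they were 5 with the array block, 0 within the 8 arrays and 11 to 20 when 1 sample was left out. In SAMP8-CR against SAMR1-CR, 1 in the report, they were 0 under quantile normalization, normexp background with quantile normalization, no filter, a detection p under 0.01, the array block, the 8 arrays or genes detected on all 12 arrays, 13 by Z ratio, and 0 to 4 when 1 sample was left out. With the array block and without SAMR1-CR replicate 3 together, chosen after seeing the data, they were 3, with a median of -0.48. The Z ratio gave 14 genes in SAMR1-CR against SAMR1-AL, 9 in SAMP8-CR against SAMP8-AL, 14 for serum and 12 for the interaction, where limma called 0. The cause was not tested where a count moved, beyond the smaller number of samples or genes that a setting leaves. Signal near background limits Pole and Chaf1b in SAMP8 and Chaf1a in SAMP8-AL to bounds and leaves 8 genes unmeasured.

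The median of SAMP8-AL against SAMR1-AL, -0.49 in the report, was -0.84 after normexp background with quantile normalization, and -0.57 to -0.42 when 1 sample was left out. Over both sera it was -0.57 under that setting, and -0.47 to -0.31 when 1 sample was left out. In SAMP8-CR against SAMR1-CR it was -0.41 to -0.048 when 1 sample was left out, and in SAMP8-CR against SAMP8-AL 0.32 within the 8 arrays, which is 1 culture against 1. Left-out ranges were -0.30 to -0.03 in SAMR1-CR against SAMR1-AL, 0.01 to 0.13 in SAMP8-CR against SAMP8-AL, -0.13 to 0.01 for serum and 0.06 to 0.42 for the interaction. Rpa3 over both sera, -0.05 and not called, reversed to 0.036 over 10 samples, to 0.049 with the array block or within the 8 arrays, and lay between -0.18 and 0.050 when 1 sample was left out.

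With the number as a replicate block 16 genes were called in SAMP8-AL against SAMR1-AL, 1 in SAMP8-CR against SAMR1-CR, 17 over both sera and 0 in each other comparison, and the medians stayed at -0.49, -0.21 and -0.37. No named member changed its side of the threshold over both sera.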
